A study of Saccharomyces cerevisiae with 11 samples.

Results

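The 8 genes described here, NOP1, NOP56, NOP58, SNU13, CBF5, GAR1, NHP2 and NOP10, encode the core proteins of the yeast small nucleolar ribonucleoprotein particles (snoRNP). They were chosen by name and function from the gene annotation of the R64 assembly, with earlier results of these data known but by a rule that uses no measured value, and are 8 of its 6002 nuclear protein-coding genes. The study follows the ends of small nucleolar RNA (snoRNA) in budding yeast with 11 samples, of which 4 have lists of ChIP-seq peaks that are used here and 7 are RNA-seq samples not analysed here. ChIP-seq sequences the DNA that crosslinks to a tagged protein and so maps where that protein sat on the chromosomes. The first pair of libraries, named Cbp20 after the small subunit of the cap-binding complex (CBC), came from a Cbp20-myc strain whose listed genotype places the tag on its partner (CBP80-myc13::NAT). The strain table of the paper gives the same tag with another marker (CBP80-myc13::HIS). The other pair came from an Rnt1-myc strain (RNT1-myc13::NAT), in which the tagged protein was the double-strand specific endonuclease of the nucleus, the yeast RNase III. Both strains were MATa, shared the his3Δ1, leu2Δ0, met15Δ0 and ura3Δ0 alleles, carried the tag on the endogenous gene, were grown in YPD at 30 °C and were precipitated with an anti-myc antibody. Each protein had 2 replicates, and no list from an untagged strain was used here, so the background of the precipitation over these genes was not measured.

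In a snoRNP, a guide RNA pairs with its target, mostly ribosomal RNA, and the bound proteins carry out and frame the modification. Box C/D particles contain Nop1 (fibrillarin in human), the enzyme that methylates the ribose, together with the paired scaffold proteins Nop56 and Nop58 and the kink-turn binding protein Snu13, which is also part of the spliceosome. Box H/ACA particles contain Cbf5 (dyskerin in human), the enzyme that makes pseudouridine, with Gar1, Nhp2, a relative of Snu13, and the very small Nop10. The messenger RNA of these proteins keeps its cap, whereas many of the snoRNA that they bind are cut by Rnt1 at their ends, so the libraries show how both factors were placed on the protein-coding side of the same pathway.

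All 8 genes are single uninterrupted reading frames that overlap no other annotated gene. Their annotated bounds are those of the coding sequence, so distances below are counted from the start codon and the stop codon and not from the ends of the messenger. The box C/D genes are NOP1 (YDL014W, chrIV:427364-428347, plus strand, 984 bp), NOP56 (YLR197W, chrXII:546097-547611, plus strand, 1515 bp), NOP58 (YOR310C, chrXV:896825-898360, minus strand, 1536 bp) and SNU13 (YEL026W, chrV:101943-102323, plus strand, 381 bp). The box H/ACA genes are CBF5 (YLR175W, chrXII:506134-507585, plus strand, 1452 bp), GAR1 (YHR089C, chrVIII:282681-283298, minus strand, 618 bp), NHP2 (YDL208W, chrIV:87512-87982, plus strand, 471 bp) and NOP10 (YHR072W-A, chrVIII:241664-241840, plus strand, 177 bp). For each of the 8, the nearest gene of a snoRNA, snRNA or tRNA was a tRNA gene, at a distance between 1738 bp for SNU13 and 57412 bp for CBF5.

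The upstream sequences of the 8 genes shared short elements that the choice of genes had not used. The polymerase A and C box (PAC), searched as GATGAG on either strand, and the rRNA processing element (RRPE), searched as AAAATTTT, which reads the same on both strands, are known from promoters of yeast ribosome biogenesis genes. Within 250 bases before and 50 bases after the start codon, PAC was found in 8 of the 8 genes, against 20.4% of all 6002 windows of that length, and RRPE in 7 of 8, all but NOP10, against 9.03%. Both elements stood together in 7 of 8 windows and in 4.38% of all windows. The stretches that hold them are shown because they are what the genes have in common outside the peaks, with each match in capitals and 10 bases on either side, read 5′ to 3′ on the strand of the gene from the RefSeq R64 genome.
NOP1, chrIV:427129-427175, plus strand: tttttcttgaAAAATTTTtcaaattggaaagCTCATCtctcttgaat
NOP56, chrXII:545915-546004, plus strand: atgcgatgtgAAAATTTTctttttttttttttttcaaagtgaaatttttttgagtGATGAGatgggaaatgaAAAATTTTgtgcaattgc
NOP58, chrXV:898458-898505, minus strand: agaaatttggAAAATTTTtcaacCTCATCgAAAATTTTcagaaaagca
SNU13, chrV:101712-101777, plus strand: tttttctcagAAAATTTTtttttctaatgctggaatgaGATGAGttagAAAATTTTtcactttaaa
CBF5, chrXII:505923-506018, plus strand: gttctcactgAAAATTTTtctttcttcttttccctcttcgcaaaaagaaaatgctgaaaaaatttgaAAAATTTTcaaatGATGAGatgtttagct
GAR1, chrVIII:283408-283445, minus strand: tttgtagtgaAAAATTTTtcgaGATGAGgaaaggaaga
NHP2, chrIV:87379-87425, plus strand: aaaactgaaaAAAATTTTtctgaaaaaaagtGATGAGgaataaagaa
NOP10, chrVIII:241541-241566, plus strand: tcaagttatgCTCATCactcttttat
The 19 matches lay between 97 and 225 bp upstream of the start codons, and none overlapped another. Not 1 base of the 19 was under a peak of any of the 4 libraries, against 93.5% of the 1760 such matches upstream of all protein-coding genes. The shortest distance from a match to the Cbp20 peak downstream of it was 87 bp, at NHP2. A match is a description of the letters and was not tested as a binding site.

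The lists give each peak as a chromosome, a start and an end, with no height or score. A position outside the peaks is therefore one at which the caller's threshold was not passed, at a read depth that is unknown. The Cbp20 lists held 3801 and 3648 peaks that covered 23.1% and 21.6% of the nuclear genome, and the Rnt1 lists held 1238 and 1741 peaks that covered 5.92% and 9.98%. The 2 Rnt1 lists thus differed in their extent by more than the 2 Cbp20 lists, and on the core genes themselves Rnt1 coverage is given for each replicate.

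Cbp20 covered the coding sequence of all 8 core protein genes almost from end to end. At least 90% of each gene lay under a peak in each Cbp20 library, the least being 1383 of the 1536 bp of NOP58 in replicate 2, and the median over the 8 genes was 98.4% in replicate 1 and 96.8% in replicate 2, against 5.93% and 0% over all protein-coding genes and 68.0% and 67.1% over the protein-coding genes that carried a Cbp20 peak at all. All 8 had a peak of at least 1 bp in both replicates, against 44.9% of all protein-coding genes. All 8 were covered over at least 50% of their length in both, against 27.4%, and over at least 90%, a threshold chosen after the values had been seen, against 14.1%. Each gene had exactly 1 Cbp20 peak in each library, with no break inside the coding sequence. The share of other genes with a single peak was not counted, and coverage this high leaves little room for a break. Coverage of at least 90% was found on core genes of each length class. Over all protein-coding genes it was found on 145 of 893 under 500 bp, 278 of 1517 of 500 to 1000 bp and 422 of 3592 over 1000 bp. By a peak of at least 1 bp in both replicates, the 3 core genes under 500 bp (SNU13, NHP2 and NOP10) all carried Cbp20, against 36.4% of that length. The same held for the 2 of 500 to 1000 bp (NOP1 and GAR1), against 48.1%, and the 3 over 1000 bp (NOP56, NOP58 and CBF5), against 45.6%.

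**Figure D1:**
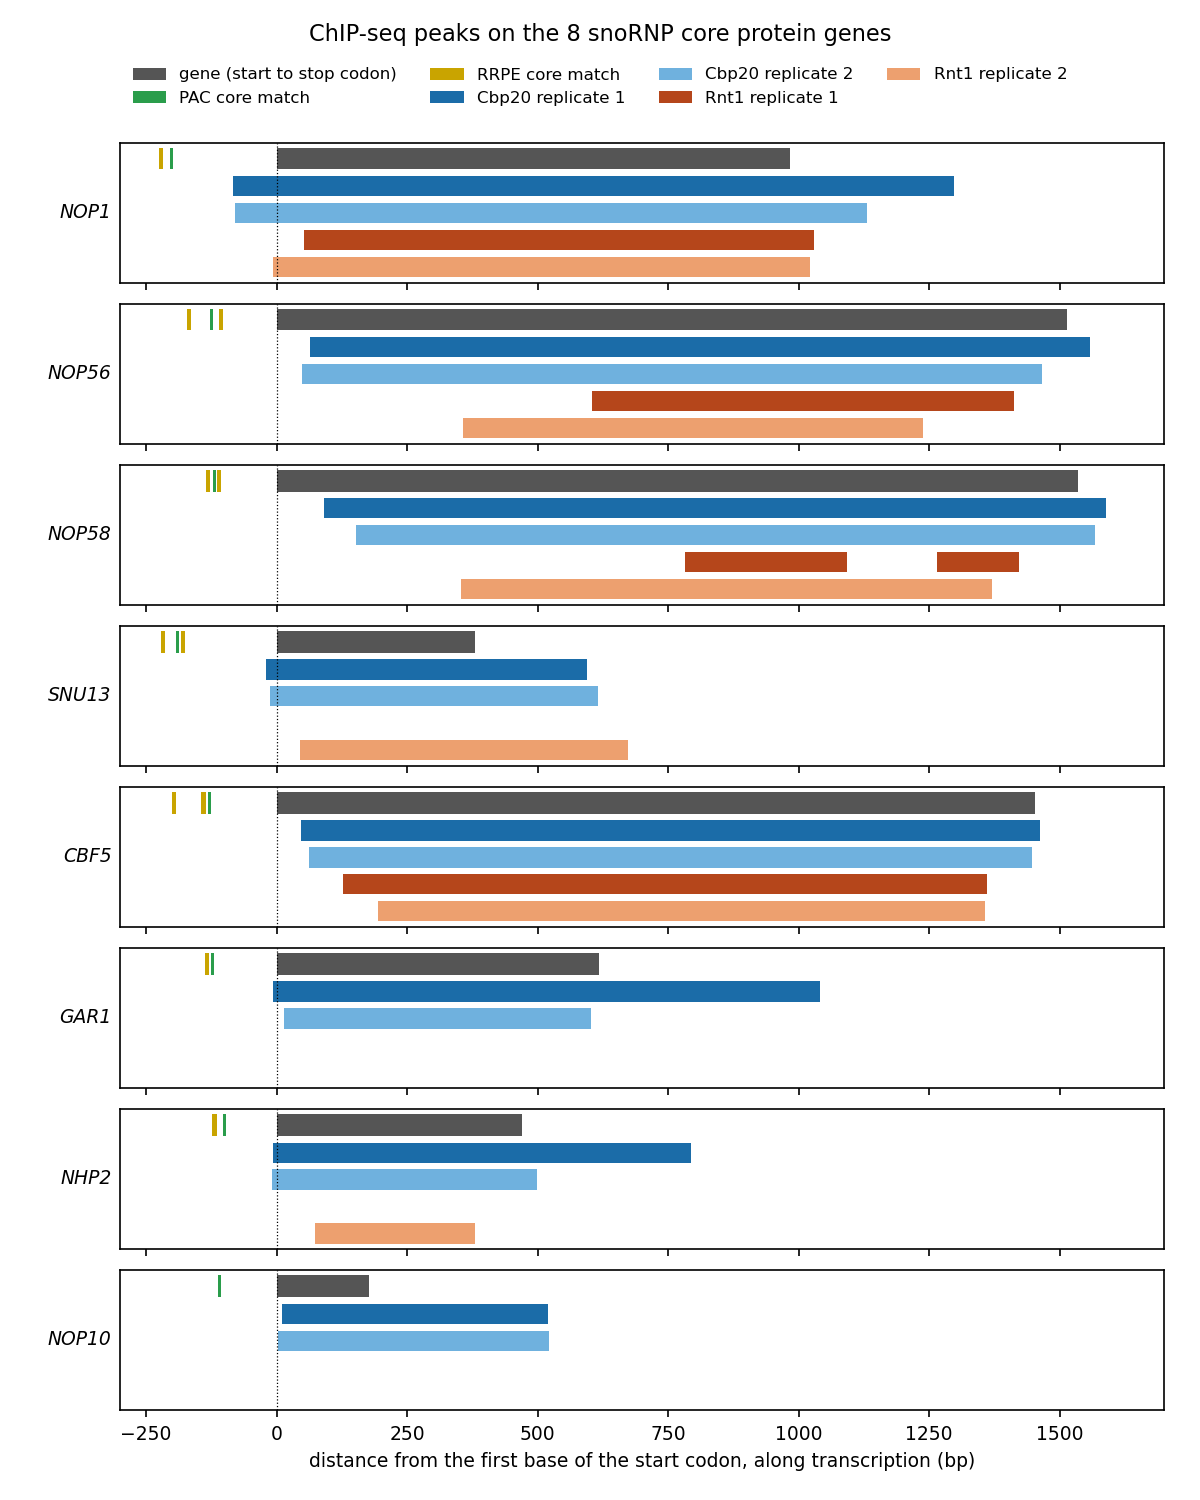
Map of the ChIP-seq peaks on the 8 genes, with distance from the first base of the start codon on the horizontal axis (bp, along transcription); the grey bar is the coding sequence, thin marks are PAC and RRPE core matches, and below it come the peaks of Cbp20 replicates 1 and 2 and Rnt1 replicates 1 and 2. Blue bars span all 8 genes, orange bars begin further along and are missing on GAR1 and NOP10, and no bar reaches an upstream element.

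Rnt1 divided the same 8 genes. The 4 longest, NOP1, NOP56, NOP58 and CBF5, carried a Rnt1 peak in both replicates, SNU13 and NHP2 carried one in replicate 2 alone, and GAR1 and NOP10 carried none. This made 4 of 8 with a peak in both replicates, against 12.9% of all protein-coding genes, with 4 of 8 in replicate 1, against 13.5%, and 6 of 8 in replicate 2, against 20.6%. At least 50% of the gene was covered in both replicates for NOP1, NOP56 and CBF5, which is 3 of 8 against 6.6%, and at least 90% for NOP1 alone, which is 1 of 8 against 2.97%. By length, Rnt1 was found in both replicates on 0 of the 3 core genes under 500 bp, 1 of the 2 of 500 to 1000 bp and 3 of the 3 over 1000 bp. Over all protein-coding genes the share did not increase with length, being 14.4%, 14.3% and 11.9% in the same classes.

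Most genes that Cbp20 covered as fully carried Rnt1 as well. Of the 845 protein-coding genes with at least 90% of their bases under Cbp20 in both replicates, 64.0% carried a Rnt1 peak in both, and 4 of the 8 core genes did. In the 3 length classes, from short to long, these shares were 57.2%, 62.2% and 67.5%, against which stand the 0 of 3, 1 of 2 and 3 of 3 core genes.

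**Figure D2:**
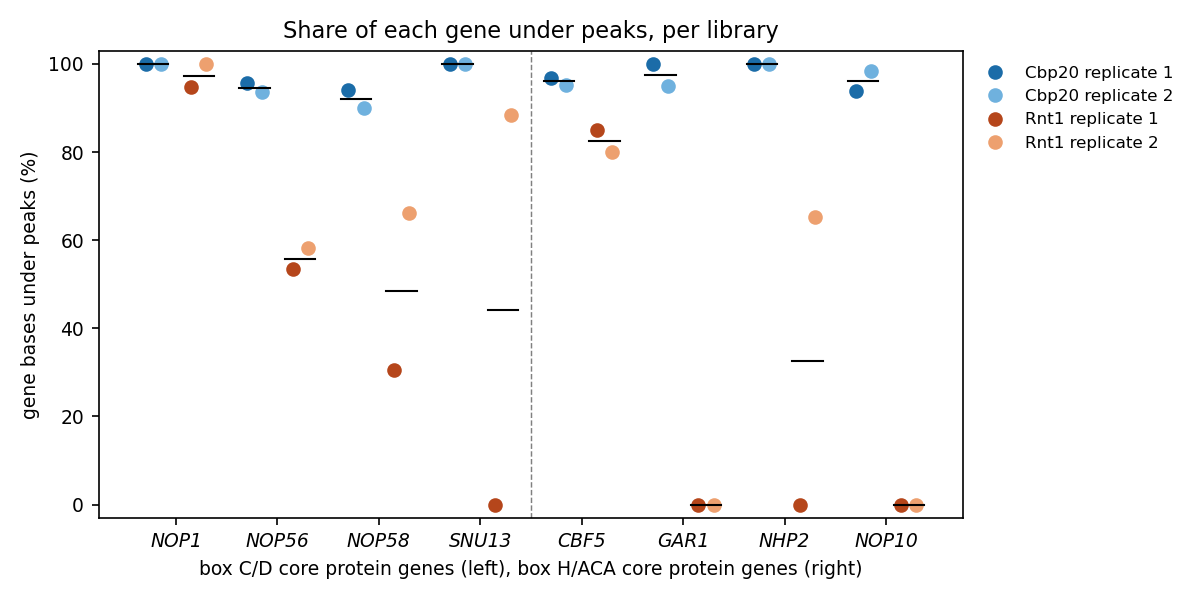
Share of each coding sequence under peaks (%, vertical axis) for the 8 genes, with 1 point per library, Cbp20 replicates to the left of Rnt1 replicates at each gene, and a black line at the mean of the 2 replicates. The Cbp20 points all sit above 90%, whereas the Rnt1 points spread from 0 to 100%.

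Among the box C/D genes, NOP1 was the one on which the proteins were hardest to tell apart. Cbp20 covered 100% of NOP1 in both replicates, and Rnt1 covered 94.7% and 100%. The Cbp20 peaks began 84 and 80 bp before the start codon and ended 313 and 147 bp beyond the stop codon. The Rnt1 peaks began 52 bp after the start codon in replicate 1 and 6 bp before it in replicate 2, and ended 46 and 38 bp beyond the stop codon. NOP1 was the only core gene whose Cbp20 peak reached more than 20 bp upstream of the start codon and the only one with its last base under Rnt1 in both replicates. Its difference in coverage, Cbp20 minus Rnt1, was 2.64 percentage points, within the spread of the Rnt1 replicates (97.4% ± 3.74, SD, n = 2).

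NOP56 and NOP58, whose products face each other across the box C/D particle, resembled each other. Cbp20 covered 95.8% and 93.5% of NOP56, and Rnt1 covered 53.4% and 58.2%. Cbp20 began 64 and 49 bp inside NOP56, whereas Rnt1 began 604 and 357 bp inside it and stopped 102 and 277 bp short of its stop codon. The Rnt1 peaks thus lay over the middle of the gene in both replicates and came nearer to its 3′ end in replicate 1. Only 60.0% of the bases under either Rnt1 peak were under both. On NOP58, Cbp20 covered 94.1% of the gene in replicate 1 and the 1383 bp given above in replicate 2, and Rnt1 covered 30.5% and 66.3%. The Rnt1 signal of replicate 1 was called as 2 peaks, chrXV:897268-897578 and chrXV:896938-897095, with 172 bp between them, where replicate 2 had a single peak at chrXV:896990-898007. Rnt1 began 782 and 353 bp inside NOP58 and ended 113 and 165 bp before its last base.

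SNU13, the shortest of the box C/D genes, was covered over 100% by Cbp20 in both replicates. Rnt1 covered 0% in replicate 1 and 88.5% in replicate 2. The Rnt1 peak of replicate 2 began 44 bp after the start codon and ran 292 bp past the stop codon, where it took in 35 bp of the convergent gene YEL025C. The Cbp20 peaks ended 213 and 234 bp past the stop codon and stayed clear of that gene. The 2 Rnt1 libraries disagreed on whether SNU13 carried the protein at all, and the mean of 44.2% ± 62.5 (SD, n = 2) describes neither of them.

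Among the box H/ACA genes, CBF5 was the only one with both proteins in both replicates. Cbp20 covered 96.8% and 95.3% of it, and Rnt1 covered 84.9% and 80.1%. Cbp20 began 46 and 63 bp and Rnt1 127 and 195 bp after the start codon. Cbp20 ended 10 bp past the stop codon in replicate 1 and 5 bp before it in replicate 2, and Rnt1 ended 92 and 94 bp before it. The replicates shared 98.4% of the CBF5 bases covered by Cbp20 in either and 94.3% of those covered by Rnt1 in either.

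The other 3 box H/ACA genes had Cbp20 over nearly all of their length and Rnt1 in at most 1 replicate. GAR1 was covered over 100% and 95.0% by Cbp20 and over 0% in both Rnt1 libraries. NOP10 was covered over 93.8% and 98.3% by Cbp20 and over 0% by Rnt1. These were the 2 core genes on which no Rnt1 peak was called. NHP2 was covered over 100% in both Cbp20 libraries, and over 0% and 65.2% in Rnt1 replicates 1 and 2. The lone Rnt1 peak on NHP2, chrIV:87585-87891, began 73 bp inside the gene and ended 91 bp before its last base. In Cbp20 replicate 1 the peaks of GAR1 and NHP2 ran 423 and 322 bp past the stop codons, into 125 bp of the convergent RPF1, a ribosome assembly gene, and 57 bp of GLE1, the next gene downstream on the same strand. In Cbp20 replicate 2 the GAR1 peak ended 16 bp before the last base and the NHP2 peak 27 bp past it.

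Averaged by particle, the box C/D genes had a median Cbp20 coverage of 97.3% and the box H/ACA genes 96.8%, with 4 genes in each. The median Rnt1 coverage was 52.1% over the box C/D genes and 16.3% over the box H/ACA genes, with ranges of 44.2 to 97.4% and 0 to 82.5% that overlap. These medians of replicate means depended on the library, being 42.0% and 0% in replicate 1 and 77.4% and 32.6% in replicate 2. Across all 8 genes the median of the replicate means was 96.8% for Cbp20 and 46.3% for Rnt1, against 8.87% and 0% over all protein-coding genes, and the Rnt1 median was 15.3% in replicate 1 alone and 65.7% in replicate 2 alone. Coverage by Cbp20 exceeded that by Rnt1, with no overlap among the 4 libraries, on 7 of the 8 core genes, all but NOP1, against 40.4% of all protein-coding genes. Only genes with Cbp20 in both replicates can meet this rule. There were 2692 such genes and 2424 met it, so most genes with Cbp20 did so as well. For these 7 the difference, Cbp20 minus Rnt1, ran from 13.6 percentage points at CBF5 to 97.5 at GAR1, with 38.9 at NOP56, 43.7 at NOP58, 55.8 at SNU13, 67.4 at NHP2 and 96.0 at NOP10. The means at NOP58, SNU13 and NHP2 hide a large spread, since without Rnt1 replicate 1 they were 25.8, 11.5 and 34.8 points and without Rnt1 replicate 2 they were 61.5, 100 and 100 points. An exact permutation test over the 4 libraries, two-sided, gave p = 0.333 for each of the 7, the smallest value that 2 against 2 allows and so above 0.05 whatever the values. The methods describe biological replication in general and the pooling of several precipitations for ChIP-seq, whereas the labels do not say whether the 2 replicates of a protein were separate cultures.

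The Cbp20 peaks began close to the start codon. The 5′ edge lay within 100 bp of it for 8 of 8 genes in replicate 1, against 48.7% of the protein-coding genes with a Cbp20 peak, and for 7 of 8 in replicate 2, all but NOP58 at 153 bp, against 52.1%. The median 5′ edge was 2.5 and 9 bp inside the coding sequence in replicates 1 and 2, against 73 and 67 bp over all protein-coding genes with a peak. These edges are not a result separate from the coverage given above. A single peak over nearly all of a short gene cannot begin far inside it, whereas a longer gene leaves more room. The comparison genes include genes covered only in part, and edges were not compared at equal coverage. For SNU13, GAR1, NHP2 and NOP10, both Cbp20 libraries placed the 5′ edge in the 60 bases printed here, which run from 30 bases before the start codon, with ATG in capitals, to show how near the covered region came to the first codon.
SNU13, chrV:101913-101972, plus strand: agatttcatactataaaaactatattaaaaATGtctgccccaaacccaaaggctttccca
GAR1, chrVIII:283269-283328, minus strand: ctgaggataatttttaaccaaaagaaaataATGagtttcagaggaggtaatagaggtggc
NHP2, chrIV:87482-87541, plus strand: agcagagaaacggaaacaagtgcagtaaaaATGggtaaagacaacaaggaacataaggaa
NOP10, chrVIII:241634-241693, plus strand: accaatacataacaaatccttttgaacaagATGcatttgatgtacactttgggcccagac
In these windows the Cbp20 region began 20 and 12 bases before the A of the ATG for SNU13, and 6 and 9 bases before it for NHP2. For GAR1 it began 7 bases before the ATG in replicate 1 and 15 bases after its A in replicate 2. For NOP10 it began 11 and 3 bases after the A. These positions are those of the called region and not of a crosslink.

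The first base of the coding sequence was under Cbp20 in both replicates for 3 of 8 genes, NOP1, SNU13 and NHP2, against 11.2% of all protein-coding genes. The last base was under Cbp20 in both for 5 of 8, NOP1, NOP58, SNU13, NHP2 and NOP10, against 19.0%. In 6 of 8 genes, all but GAR1 and NHP2, a single Cbp20 peak lay on the gene and touched no other annotated gene, in both replicates, against 21.5%. Genes that overlap another annotated gene, unlike the core genes, cannot meet this last rule. These Cbp20 shares count all 6002 protein-coding genes, although only the 2692 with Cbp20 in both replicates could qualify. In the same order, 670, 1138 and 1288 genes did. Rnt1 covered the first base in both replicates for 0 of 8, against 2.47%, and the last base for 1 of 8, NOP1, against 7.21%. At the 3′ end the 2 Cbp20 libraries differed. The median edge lay 263 bp past the stop codon in replicate 1 and 29.5 bp past it in replicate 2. Over all protein-coding genes with a Cbp20 peak it lay at 15 and -33 bp, so replicate 2 ended earlier there as well. All 8 last bases of the core genes were covered in replicate 1. The edge of replicate 2 minus that of replicate 1 was -166 bp at NOP1, -439 bp at GAR1 and -295 bp at NHP2, and lay between -92 and 21 bp at the other 5 genes. The NOP10 peaks ended 343 and 345 bp past its stop codon, further than the gene itself is long.

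**Figure D3:**
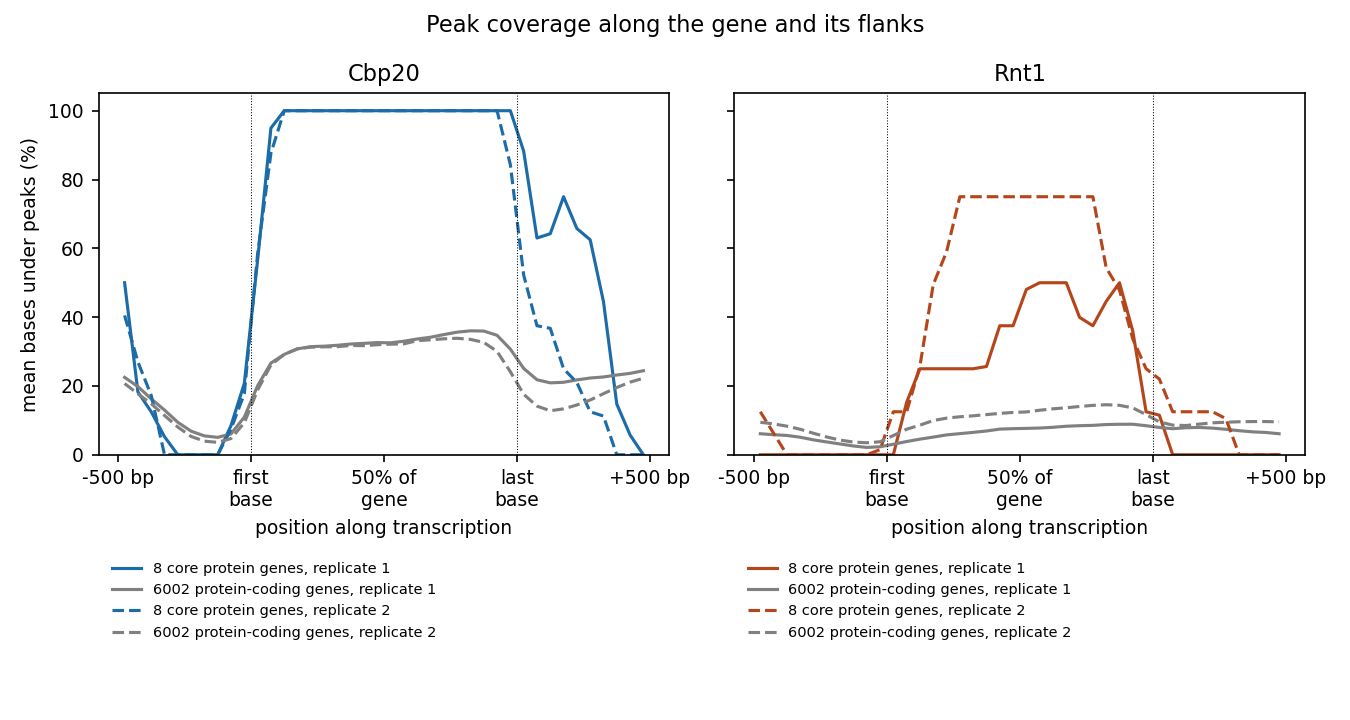
Mean share of bases under peaks (%, vertical axis) along the coding sequence, scaled to 20 bins, and in 50 bp bins over 500 bp on either side, for Cbp20 (left) and Rnt1 (right), with coloured lines for the 8 core genes and grey lines for all 6002 protein-coding genes, solid for replicate 1 and dashed for replicate 2. For Cbp20 replicate 1 the core genes stood at 0% between 300 and 100 bp upstream, 56.6% in the first bin and 100% from the third bin to the last, whereas all genes reached 36.0% at most. In Cbp20 replicate 2 the core genes fell to 84.3% in the last bin.

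Averaged along the gene, Cbp20 replicate 1 covered 56.6% of the bases in the first twentieth of the 8 genes, 94.9% in the next and 100% in every later bin. Cbp20 replicate 2 covered 58.4% in the first bin, 87.7% in the next, 100% from the third to the nineteenth and 84.3% in the last. Rnt1 replicate 1 covered 0% in the first bin, between 25 and 50% from the third to the eighteenth and 12.5% in the last, and replicate 2 covered 12.5% in the first bin, at most 75% through the middle and 25.0% in the last. Over all protein-coding genes Rnt1 stayed at or below 8.87% in replicate 1 and 14.5% in replicate 2. Over all protein-coding genes the Cbp20 profile of replicate 1 went from 20.1% in the first bin to a highest value of 36.0% near the 3′ end. Between 300 and 100 bp before the start codon, 8 of the 8 genes had no base under Cbp20 in either replicate, which was also so for 86.8% of all protein-coding genes in replicate 1 and 89.0% in replicate 2.

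Where both proteins were called on a core gene, Rnt1 mostly lay inside Cbp20. The libraries were set side by side by replicate number, which names them and does not tie their cultures. This gave 10 pairs, and the whole Rnt1 region lay within the Cbp20 region on 4 of 4 core genes in replicate 1, against 81.8% of the protein-coding genes with both proteins, and on 5 of 6 in replicate 2, against 67.5%. With the numbers crossed it did so in 9 of 10 pairs as well. In none of the 10 was a base of the coding sequence under Rnt1 alone. This was not counted over all protein-coding genes, and Cbp20 left at most 153 bp of a core gene uncovered, so it adds little to the coverage. The Rnt1 region began further 3′ than the Cbp20 region in 10 of 10 pairs, by 56 to 691 bp with a median of 134 bp. Its 3′ edge minus that of Cbp20 ranged from -267 to 58 bp with a median of -131.5 bp, and SNU13 in replicate 2 was the single pair in which Rnt1 reached further. The same order held on most genes of the genome that carried both proteins. Rnt1 began further 3′ on 4 of 4 core genes in replicate 1, against 93.4% of 790 protein-coding genes, and on 6 of 6 in replicate 2, against 89.1% of 1188. It ended further 5′ on 4 of 4 core genes, against 86.3%, and on 5 of 6, against 74.0%. The Rnt1 lists were called separately from the Cbp20 lists, at unknown depths, and the median peak width was 484 and 498 bp for Cbp20 and 349 and 444 bp for Rnt1. The part of peak width in the nesting was not tested.

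The size of the step differed between genes. The 5′ edge of Rnt1 minus that of Cbp20 was 540 and 308 bp on NOP56 and 691 and 200 bp on NOP58, in replicates 1 and 2. It was 136 and 74 bp on NOP1 and 81 and 132 bp on CBF5. It was 56 bp on SNU13 and 82 bp on NHP2, in replicate 2. These steps restate in part the Rnt1 coverage given above, and a short gene leaves less room for them. The medians over the core genes were 338 bp in replicate 1, over 4 genes, and 107 bp in replicate 2, over 6 genes. Over all protein-coding genes with both proteins they were 205.5 and 134.5 bp. The 2 core medians cover unlike genes, since SNU13 and NHP2 enter in replicate 2 alone. In each replicate NOP56 and NOP58 lay above the median of all protein-coding genes with both proteins, and NOP1 and CBF5 below it.

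**Figure D4:**
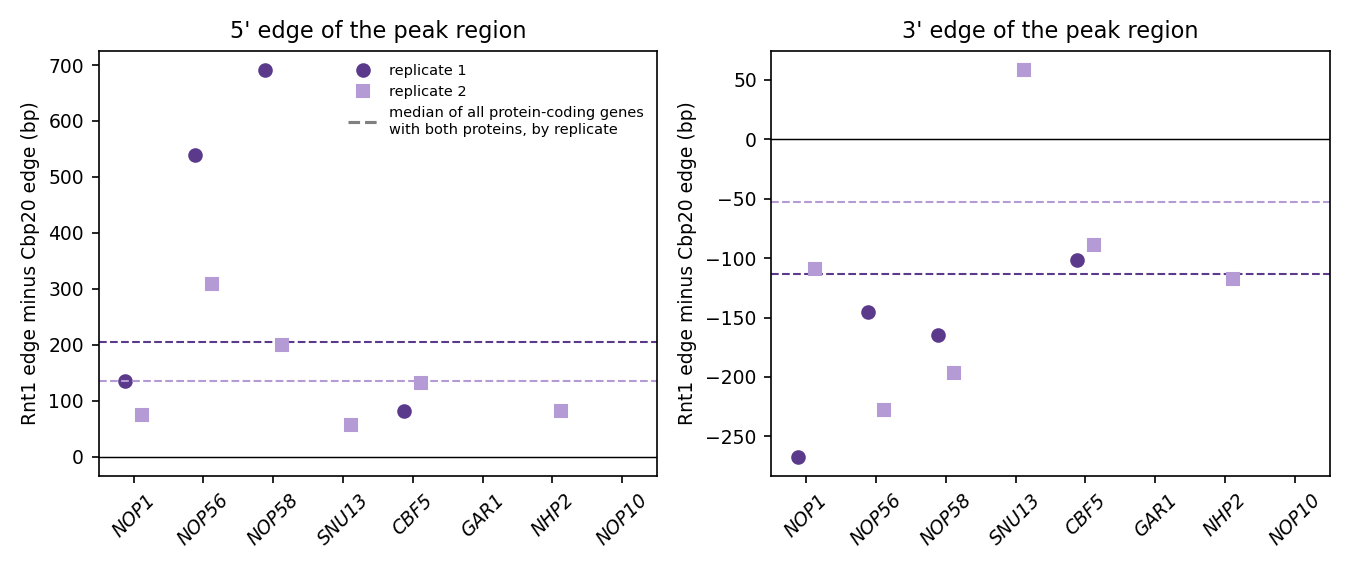
Position of the Rnt1 edge minus that of the Cbp20 edge (bp, vertical axis) at the 5′ end (left) and the 3′ end (right) of the peak regions, with 1 point per core gene and replicate and dashed lines at the medians of all protein-coding genes that carried both proteins. All 10 points at the 5′ end lie above 0 and 9 of 10 at the 3′ end lie below 0; GAR1 and NOP10 have no point because Rnt1 was not called on them.

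Rnt1 recognises hairpins whose loop has the sequence AGNN, so the coding strand of the core genes was searched for such a loop closed by 8 consecutive Watson-Crick or G-U pairs. None of the 8 genes held one, against 4.08% of all protein-coding genes, a share that was 0.896% among genes under 500 bp and 5.85% among genes over 1000 bp. The search does not cover looser stems and says nothing about whether Rnt1 cuts these messengers.

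The other genes of the pathway were a list of 30, made by role with earlier results of these data known. Of these, 20 carried Cbp20 in both replicates, against 44.9% of all protein-coding genes, and 2 carried Rnt1 in both, against 12.9%, and the median coverage was 31.8% for Cbp20 and 0% for Rnt1. Of the 30, 4 were covered over at least 90% by Cbp20 in both replicates, near the 14.1% of all protein-coding genes, whereas 8 of the 8 core genes were. All 4 genes of the U3 particle and its partners (RRP9, MPP10, IMP3 and IMP4) carried Cbp20, with a median of 75.1%, and none carried Rnt1. MPP10, at 95.6% and 83.1%, was the most covered of these by its mean, and its Rnt1 coverage was 0% in both replicates.

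Of the 7 box C/D assembly genes, 3 carried Cbp20 in both replicates, near the genome share of 44.9%, and RSA1, HIT1, PIH1 and TAH1, which encode the Hsp90 cofactors and adaptor proteins that bring the core proteins together, had no base under Cbp20 in either. RVB1, an ATPase gene of the same list, was covered over 99.2% and 96.9% by Cbp20, and no gene of the list carried Rnt1. Of the 2 box H/ACA assembly genes, NAF1 carried Cbp20 over 57.7% and 61.7%. SHQ1, whose product holds Cbf5 before assembly, had 4.66% in replicate 1 and 0% in replicate 2.

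The 2 pathway genes with Rnt1 in both replicates were SRP40 and NRD1. SRP40, which encodes a nucleolar chaperone of snoRNP, had 93.0% and 94.3% of its bases under Cbp20 and 41.0% and 54.1% under Rnt1. NRD1, which encodes an RNA-binding protein that terminates snoRNA transcription, had 100% in both Cbp20 libraries and 27.1% and 77.0% under Rnt1. Of the 13 genes for termination and end trimming, 8 carried Cbp20 in both replicates, against the same 44.9%, and SEN1, PCF11, TRF4 (annotated as PAP2), AIR1 and RNT1 did not. PCF11 had 8.08% and AIR1 10.9% under Cbp20 in replicate 1 alone, and SEN1, TRF4 and RNT1 had 0% in all 4 libraries. The CBC genes STO1 and CBC2 carried Cbp20 over 20.4% and 16.0%, and over 73.5% and 36.8%.

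**Figure D5:**
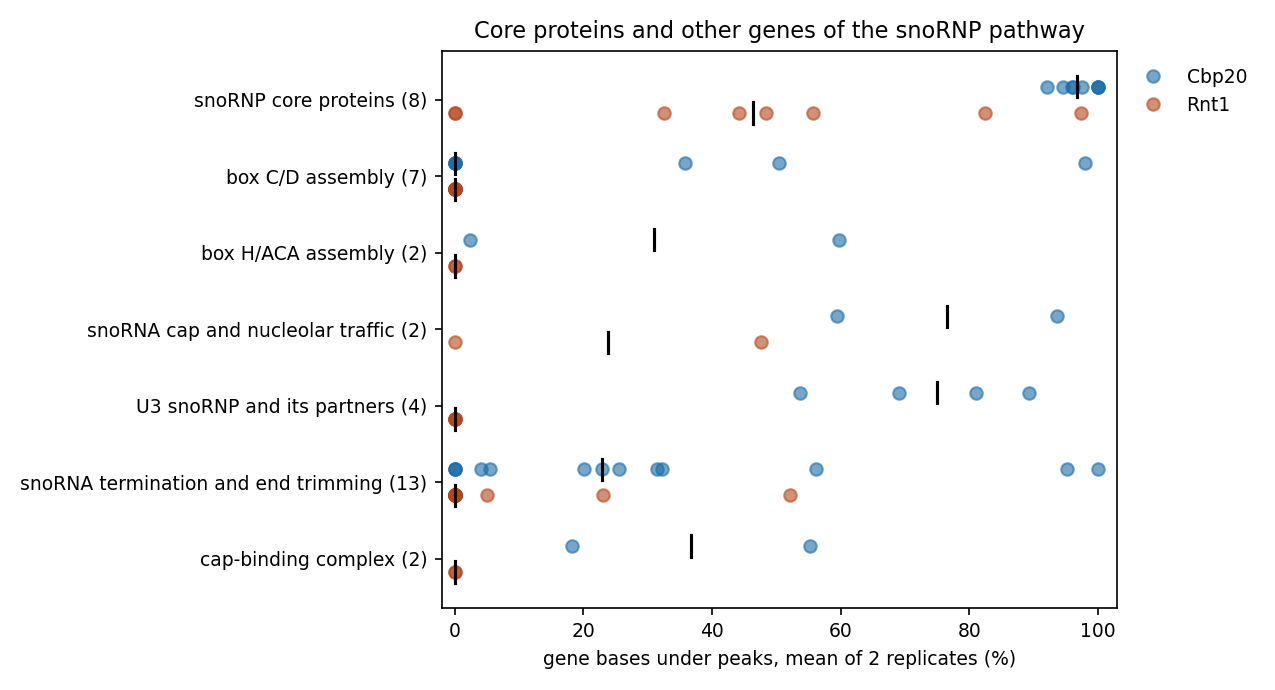
Share of the coding sequence under peaks (%, horizontal axis, mean of 2 replicates) for the 8 core genes and 6 lists of other pathway genes, with 1 point per gene, blue for Cbp20 above orange for Rnt1, and a black line at the median; the number of genes is in brackets. The core genes have a Cbp20 median of 96.8% and a Rnt1 median of 46.3%, and the 6 other lists have Cbp20 medians between 0 and 76.6%.

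Genes outside the pathway with the most similar values were found by Euclidean distance over the 4 coverages, as a description. Nearest to the mean of the core genes (97.6% and 96.5% for Cbp20, 32.9% and 57.3% for Rnt1) were RPG1 at 3.94 percentage points, PDA1 at 4.40 and UIP5 at 6.48. RPG1 encodes a subunit of translation initiation factor eIF3 and PDA1 a subunit of pyruvate dehydrogenase. Among genes within 20% of the length of a core gene, the closest were CHA1 to NOP1 (0.116 points), AAT2 to NOP56 (9.58), URA7 to NOP58 (10.5) and HTZ1 to SNU13 (1.78). For the box H/ACA genes they were CYS3 to CBF5 (7.09), CDC42 to GAR1 (0.192), ARF1 to NHP2 (4.79) and TMA7 to NOP10 (2.11). The coverage of every core gene by the 4 libraries thus had a near match outside the pathway, with URA7 and NOP58 the furthest apart.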

How the data were processed

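The authors deposited 1 peak list for each of the 4 ChIP libraries, with positions in bp and no other unit. Their methods state Bowtie2 alignment of read pairs to sacCer3 (versions not given), unique reads of high mapping quality, and MACS2 peaks at default options with a q-value filter. Read counts and depth are not given in the sources used here, so no interval was computed, and wider or more peaks in a deeper library cannot be told apart from wider binding. Every peak lay inside the R64 chromosomes.

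Libraries were grouped by title. Coverage, edges and motif matches were computed with Python 3.11.15 and numpy 2.4.6. Coverage was checked against bedtools 2.31.1 (largest difference 0 bp), and coverage and edges were tested on simulated peaks. Coordinates count from 1. A peak counted from 1 bp of overlap. The alternatives were wider peaks only, genes extended by 100 bp, at least 50% coverage, peaks under 100 bp apart joined, other background genes and each replicate left out. Named genes were the 8 core genes, neighbours touched by their peaks, pathway genes with Rnt1 in both replicates or without Cbp20 in both, and nearest genes in coverage, with a few others of the pathway lists named after their values were seen. Genes and lists were chosen with earlier results of these data known.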

Additional observations from a re-analysis of the deposited data

How the results depend on the processing

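With genes extended by 100 bp at both ends, the median Cbp20 coverage of the 8 core genes was 84.3%, against 96.8% for the coding sequence alone, and at most 84 of the 250 bp upstream of any of the 8 were under a Cbp20 peak. Leaving out a Cbp20 replicate gave medians of 96.8 to 98.4%, 3 to 4 genes with the first base covered and 5 to 8 with the last base covered. The value of 8 was that without Cbp20 replicate 2. Leaving out a Rnt1 replicate gave 4 to 6 genes with Rnt1 and median coverages from 15.3% without replicate 2 to 65.7% without replicate 1. The difference at NOP1, Cbp20 minus Rnt1, ranged from 0 to 5.28 percentage points when 1 library was left out, and was 13.8 with extended genes. At SNU13 it was 11.5 points without Rnt1 replicate 1 and 100 without replicate 2, at NHP2 34.8 and 100, and at NOP58 25.8 and 61.5. With the wider 50% of peaks, Rnt1 was found on 3 core genes in both replicates and the difference at NHP2 was 100 points. All 8 core genes carried Cbp20 under every alternative tried, and no difference changed sign. No paired analysis was possible because the labels number only the second library of each strain, and the counts of nested regions were the same, 9 of 10, when libraries of unlike number were set side by side, a comparison added after seeing the data.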

Other observations

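The genes that share the upstream elements of the core genes were set beside the rest of the genome, a division made after the data had been seen and described without a test. Of the 256 other protein-coding genes with both PAC and RRPE cores, 183 (71.5%) carried a Cbp20 peak in both replicates, 55 (21.5%) were covered over at least 90% and 39 (15.2%) carried Rnt1 in both. With RRPE alone (279 genes), these shares were 59.1%, 28.7% and 24.0%. With PAC alone (958 genes) they were 43.9%, 11.2% and 10.9%. With neither (4501 genes) they were 42.5%, 13.2% and 12.5%. The median Cbp20 coverage was 53.8% with both elements, 48.0% with RRPE alone, 8.40% with PAC alone and 6.31% with neither.

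The 8 core genes were all covered over at least 90% by Cbp20 in both replicates, 7 with both elements and NOP10 with PAC alone. Among the other genes, 55 of 256 with both elements were so covered, and 11.2% of those with PAC alone. Expression level was not measured in the 4 lists, and its part in these shares was not tested.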
